A study of Homo sapiens with 15 samples.

Results

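The 7 genes described here are MUC2, PCSK1, A2M, DMBT1, SLC6A20, CITED1 and CEMIP, which rose strongly when A375 melanoma cells carrying VAV1 were given saracatinib. They were chosen by that measured rise, the log2 difference between VAV1 cells with saracatinib and VAV1 cells with vehicle, out of 16768 genes listed for that experiment. They lead the ranking among genes past the threshold with non-overlapping libraries and a mean over a floor of 5 CPM (normalized counts scaled to their total), with genes under clone names left out. All 7 are listed there, and 6 of them, all but MUC2, are among the 16295 genes listed for the untreated experiment. Because the rise chose them, it is given as a description with no test, and the question is how much of it returned each gene to the level of cells without VAV1 and how much went above that level.

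A375 is an established human melanoma line with mutant BRAF. Its RNA was sequenced in 15 libraries, 5 groups of 3. VAV1-overexpressing cells received saracatinib or vehicle, and cells with the empty vector received vehicle, which makes 9 libraries. RAC1 P29S cells and empty vector cells, both untreated, make the other 6. No group combines the empty vector or RAC1 P29S with saracatinib, so an effect of the inhibitor without VAV1 was not measured. The labels give neither dose nor time nor the promoter of the transgenes, and they do not say whether a line is a clone. For RAC1 P29S the labelled genotype reads empty vector, so samples were grouped by title. The design text calls the samples biological triplicates without naming separate transductions, so p-values cover the spread between these 3 cultures of a group.

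VAV1 averaged 14.12 with saracatinib and 13.91 with vehicle, against 2.22 in empty vector cells, on the log2(normalized count + 1) scale in which every level here is given. RAC1 averaged 14.93 in RAC1 P29S cells and 11.88 in their untreated controls, and a value summed by symbol holds the transgene and the cell's own gene together. After undoing the log, a library summed to between 14443918 and 16262759 normalized counts. The vehicle and saracatinib libraries and the untreated libraries were scaled apart, so levels are compared within an experiment only. Of 9 melanocyte and melanoma markers, SOX10 averaged 11.43, 10.80 and 12.88 in saracatinib, VAV1 vehicle and empty vector cells, S100A1 7.95, 6.47 and 9.54, S100B 6.86, 5.96 and 9.10, and MITF 8.997, 10.09 and 8.53. The pigmentation genes were low or missing: MLANA, PMEL and TYRP1 averaged between 1.90 and 4.26, and TYR and DCT are not listed for these libraries.

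VAV1 is an exchange factor that loads small GTPases such as RAC1 with GTP, and SRC family kinases phosphorylate it. RAC1 P29S is an activated form of RAC1 found in melanoma. Saracatinib inhibits SRC family kinases. The 7 genes come from unlike pathways, but most encode proteins that work outside the cell or at its surface. MUC2 is a gel-forming mucin and DMBT1 a mucosal scavenger receptor protein, A2M traps proteases and CEMIP takes part in the breakdown of hyaluronan. PCSK1 cuts prohormones in secretory granules, SLC6A20 carries proline and related imino acids into cells, and CITED1 is a nuclear coactivator that binds CBP and p300.

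With saracatinib all 7 genes stood above the empty vector level, and they differed in where VAV1 had put them. PCSK1, A2M, CITED1 and CEMIP were lower in VAV1 vehicle cells than in empty vector cells, so part of their rise was a return. MUC2, DMBT1 and SLC6A20 were not measurably lowered in VAV1 vehicle cells, and almost the whole rise lay above the empty vector. CEMIP was the gene with most return, 76.7% of its log2 rise.

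**Figure D1:**
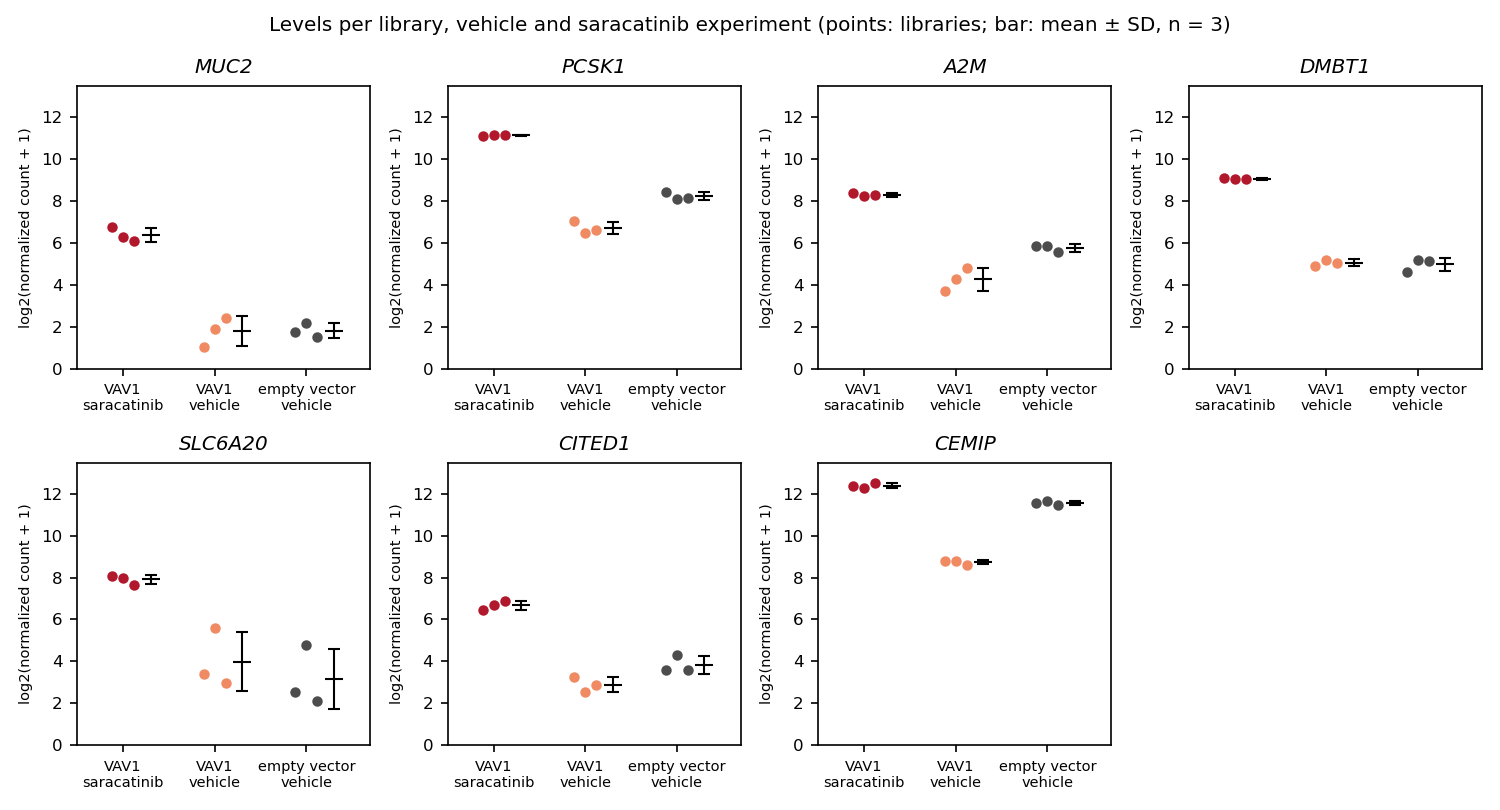
Each panel gives 1 gene in the 9 vehicle and saracatinib libraries, with log2(normalized count + 1) on the vertical axis, points for libraries and a bar for mean ± SD (n = 3). The saracatinib libraries lie above both other groups in all 7 panels, and in CEMIP the empty vector libraries lie close under them.

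The secreted proteins of mucosal surfaces came first among the genes without return. MUC2 lies on GRCh38 chromosome 11 between 1074875 and 1110511 on the plus strand and encodes the main mucin of intestinal goblet cells. Its level was 6.77, 6.30 and 6.10 with saracatinib, 1.01, 1.89 and 2.43 in VAV1 vehicle cells and 1.73, 2.19 and 1.49 in empty vector cells. The saracatinib libraries stood apart, and the vehicle groups overlapped. In normalized counts these were means of 84.4 ± 21.0 with saracatinib, 2.70 ± 1.68 in VAV1 vehicle cells and 2.56 ± 0.907 in empty vector cells (SD, n = 3). MUC2 was thus a gene near the bottom of detection in both vehicle groups, and it passed the filter on low values (a normalized count of 10 in 3 libraries) only through the 3 saracatinib libraries. Its rise over VAV1 vehicle was 4.61 ± 0.45 on the log2 scale (SE), and its difference from the empty vector was 4.59 ± 0.45. With a pseudocount of 16 in place of 1 that difference was 2.42.

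DMBT1, on chromosome 10 between 122560665 and 122643736 on the plus strand, encodes a secreted glycoprotein with repeated scavenger receptor cysteine-rich domains that binds bacteria at epithelial surfaces. It had 9.11, 9.06 and 9.03 with saracatinib, 4.91, 5.21 and 5.06 in VAV1 vehicle cells and 4.62, 5.18 and 5.14 in empty vector cells. The vehicle groups overlapped, with the lowest library in empty vector cells, and the saracatinib libraries differed among themselves by less than 0.1. Its rise was 4.01 ± 0.18, and it stood 4.09 ± 0.18 above the empty vector, 17.0-fold. VAV1 vehicle cells differed from empty vector cells by 0.08 ± 0.18, with a 95% interval of -0.31 to 0.47. DMBT1 is built of internal repeats, and reads in such sequence can be assigned with less certainty.

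MUC2, DMBT1 and SLC6A20 did not pass the threshold between VAV1 vehicle and empty vector cells and stood far above the empty vector with saracatinib. The promoters of MUC2 and DMBT1 are shown as examples of these genes. They are RefSeq sequences of GRCh38.p14, 250 bases before to 50 after the start, 5′ to 3′ on the gene's strand, at chr11:1074624-1074923 (plus strand) and chr10:122560504-122560803 (plus strand). Capitals mark a match to the AP-1 motif TGANTCA.
MUC2: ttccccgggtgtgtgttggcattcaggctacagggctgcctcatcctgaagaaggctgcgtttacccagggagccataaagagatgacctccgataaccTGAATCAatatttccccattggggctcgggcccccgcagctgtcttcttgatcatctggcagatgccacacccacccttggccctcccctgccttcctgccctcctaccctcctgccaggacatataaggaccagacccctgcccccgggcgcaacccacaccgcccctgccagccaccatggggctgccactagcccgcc
DMBT1: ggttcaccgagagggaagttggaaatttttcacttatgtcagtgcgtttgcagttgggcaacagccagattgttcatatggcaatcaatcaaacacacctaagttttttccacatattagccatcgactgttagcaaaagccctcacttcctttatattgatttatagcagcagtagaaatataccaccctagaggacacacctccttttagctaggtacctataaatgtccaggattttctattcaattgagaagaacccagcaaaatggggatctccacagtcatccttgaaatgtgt
The match in MUC2, TGAATCA, begins at position -151 from the start site, and 7.71% of the 35116 promoters in the table hold this motif on either strand. The DMBT1 window has a GC content of 40.7%, against a median of 58.7% over all promoters, and holds none of the 5 motifs searched. A match is a description of these letters and no measured site.

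SLC6A20, on chromosome 3 between 45755450 and 45796535 on the minus strand, encodes a sodium-coupled imino acid transporter best known from kidney and gut. Its level was 8.09, 7.99 and 7.65 with saracatinib, 3.41, 5.58 and 2.94 in VAV1 vehicle cells and 2.51, 4.78 and 2.13 in empty vector cells. Replicate 2 was the high library in both vehicle groups, by about as much in each, while no saracatinib library was below 7.65. The rise was 3.93 ± 0.79 and the distance above the empty vector 4.77 ± 0.79. Without empty vector replicate 2 the distance was 5.59, and without VAV1 vehicle replicate 2 the rise was 4.73. VAV1 vehicle cells differed from empty vector cells by 0.84 ± 0.79 (95% interval -0.95 to 2.64). That interval holds changes of either direction, so SLC6A20 cannot be placed as raised or lowered by VAV1. Without empty vector replicate 2 the difference was 1.66, and without VAV1 vehicle replicate 2 it was 0.04.

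Among the genes with a partial return, PCSK1 varied least between saracatinib libraries. PCSK1, on chromosome 5 between 96390415 and 96434143 on the minus strand, encodes the convertase that cuts proinsulin and proopiomelanocortin in endocrine and neural cells. It had 11.12, 11.17 and 11.14 with saracatinib, 7.04, 6.47 and 6.61 in VAV1 vehicle cells and 8.44, 8.12 and 8.17 in empty vector cells. The 3 groups did not overlap, and VAV1 vehicle cells were the lowest. VAV1 vehicle cells stood 1.54 ± 0.13 under the empty vector, and saracatinib cells 2.90 ± 0.13 above it, 7.46-fold. Return made up 34.6% of the log2 rise of 4.44 ± 0.13.

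A2M, on chromosome 12 between 9067664 and 9116229 on the minus strand, encodes alpha-2-macroglobulin, a plasma protein that encloses many kinds of protease and is then cleared through the receptor LRP1. It had 8.41, 8.24 and 8.27 with saracatinib, 3.70, 4.28 and 4.81 in VAV1 vehicle cells and 5.87, 5.84 and 5.55 in empty vector cells. The order was as for PCSK1, with no overlap, and the VAV1 vehicle libraries were the most spread. VAV1 vehicle cells stood 1.49 ± 0.24 under the empty vector and saracatinib cells 2.55 ± 0.24 above it. Return made up 36.9% of the rise of 4.04 ± 0.24.

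CITED1, on chromosome X between 72301638 and 72307187 on the minus strand, is a coactivator without a DNA-binding domain that was first described as a melanocyte-specific gene. It had 6.46, 6.68 and 6.87 with saracatinib, 3.26, 2.55 and 2.84 in VAV1 vehicle cells and 3.57, 4.32 and 3.56 in empty vector cells. Saracatinib libraries were far above the rest, and the gap between the vehicle groups was 0.30, the smallest of the 4 genes with a return. VAV1 vehicle cells stood 0.93 ± 0.31 under the empty vector and saracatinib cells 2.85 ± 0.31 above it, and return made up 24.6% of the rise of 3.78 ± 0.31. In GENCODE 29 the gene shares 1289 bases with PIN4 on the opposite strand. It also shares 5497 bases, nearly its whole length, with the protein-coding AL133500.1 on the same strand, which is not listed under that name. Whether counting used strand is not given in the sources used here, and strand could not separate CITED1 from AL133500.1. Shared bases here are of whole gene spans, introns included, so they do not measure shared transcript sequence. The CITED1 value is uncertain to that extent. Antisense genes not listed under their names also overlap PCSK1 (43729 bases), A2M (1021 bases) and CEMIP (52678 bases for the longest). The protein-coding MESD, also not listed under that name, overlaps CEMIP by 5488 bases on the opposite strand. PIN4 itself differed between saracatinib and VAV1 vehicle cells by 0.04 ± 0.11.

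CEMIP, on chromosome 15 between 80779343 and 80951776 on the plus strand, encodes a hyaluronan-binding protein needed for hyaluronan depolymerization in fibroblasts. Its level was 12.38, 12.29 and 12.52 with saracatinib, 8.82, 8.81 and 8.62 in VAV1 vehicle cells and 11.55, 11.65 and 11.45 in empty vector cells. The lowest saracatinib library was 0.64 above the highest empty vector library, and VAV1 vehicle libraries were far below both. VAV1 vehicle cells stood 2.80 ± 0.07 under the empty vector, 6.95-fold lower. Saracatinib cells stood 0.85 ± 0.07 above it (95% interval 0.69 to 1.01), 1.80-fold. Return therefore made up 76.7% of the rise of 3.65 ± 0.07.

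The promoters of PCSK1 and CEMIP are shown as examples of a gene whose rise was partly a return and of the gene with most return. They come from the same RefSeq table, at chr5:96433199-96433498 (minus strand, 1 of the 2 starts given for PCSK1) and chr15:80779120-80779419 (plus strand). Capitals mark a match to the cAMP response element TGACGTCA.
PCSK1: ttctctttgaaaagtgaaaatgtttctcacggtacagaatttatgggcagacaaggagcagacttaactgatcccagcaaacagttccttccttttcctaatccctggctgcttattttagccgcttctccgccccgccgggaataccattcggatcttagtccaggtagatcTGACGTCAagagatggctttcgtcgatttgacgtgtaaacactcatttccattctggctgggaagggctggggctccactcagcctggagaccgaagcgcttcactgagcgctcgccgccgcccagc
CEMIP: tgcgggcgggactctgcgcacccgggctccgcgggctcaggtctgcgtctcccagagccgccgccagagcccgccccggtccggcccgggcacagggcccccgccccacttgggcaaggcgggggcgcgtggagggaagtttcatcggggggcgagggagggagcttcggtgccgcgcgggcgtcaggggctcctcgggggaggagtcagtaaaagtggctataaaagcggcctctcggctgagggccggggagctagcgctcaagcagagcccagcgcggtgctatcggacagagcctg
The PCSK1 match begins at position -77 from this start, and 1.85% of all promoters hold the motif. The window of the other PCSK1 start holds none of the 5 motifs. The CEMIP window is 73.0% GC and holds none of the 5 motifs. A promoter was found for 6 of the 7 genes, all but A2M. The other motifs searched on both strands were TEAD GGAATG (14% of all promoters), STAT TTCNNNGAA (7.66%) and the MITF box CATGTG (11.1%). Only CITED1 held any of these, a STAT match TTCGGGGAA and a MITF box in separate windows of its 3 starts, and SLC6A20 held none. No match counted for AP-1 and the cAMP response element at once.

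**Figure D2:**
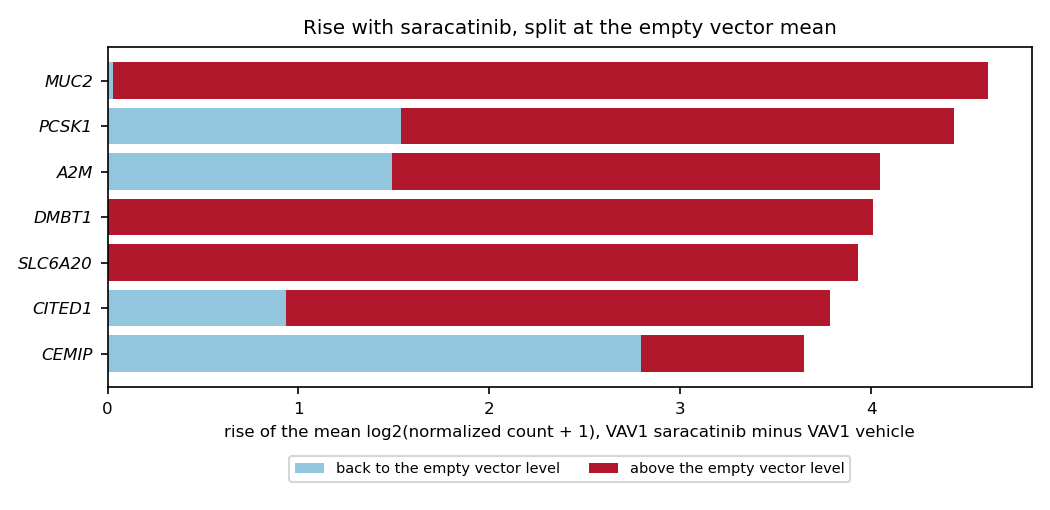
For each gene the bar is the rise of the mean log2(normalized count + 1) in VAV1 saracatinib over VAV1 vehicle cells, split at the empty vector vehicle mean. The pale part, back to the empty vector, is longest in CEMIP (2.80) and missing in DMBT1 and SLC6A20.

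The split was set against all genes. Every member passed the filter on low values, but MUC2 only through its saracatinib libraries, and SLC6A20 reached a normalized count of 10 in 5 of 9 libraries and CITED1 in 6, so counts over the members carry the choice with them. All 7 members passed the threshold (limma adjusted p under 0.05) above the empty vector, as did 22.4% of 14410 genes tested, and none of their saracatinib libraries overlapped the empty vector libraries, as for 27.2% of all genes in that direction. The highest of the 7 limma adjusted p was 0.00109, for SLC6A20, and that of CEMIP was 1.11e-06. This comparison shares its saracatinib libraries with the rise that chose the genes, so these p-values are not independent of the choice and only place each gene in the split. Over all genes 18.3% were higher with saracatinib than with VAV1 vehicle, and 543 genes did so by at least 2-fold. Of these 543 genes, 53.0% were above the empty vector (288 genes), 72 were below it and 183 did not pass either way. Among the 13 other genes raised at least 8-fold, 76.9% were above the empty vector. Standing above the empty vector was thus common among strongly raised genes and not particular to these 7. Of the exceptions, SCARA5 was 0.12 above the empty vector (limma adjusted p = 0.725) and SLC24A3 differed from it by -0.51 (limma adjusted p = 0.248). In bulk RNA, fewer cells with a transcript and less of it per cell cannot be told apart.

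VAV1 vehicle cells were lower than empty vector cells in 4 of the 7 genes and higher in none, while 20.1% of all genes tested were lower and 23.6% higher. This comparison shares its VAV1 vehicle libraries with the choice, which favours genes that were low there. Among the 543 genes raised at least 2-fold, 56.0% were lower in VAV1 vehicle cells, close to 4 of 7. The limma adjusted p was 9.49e-07 for PCSK1, 0.000247 for A2M, 0.0281 for CITED1 and 5.71e-12 for CEMIP. For MUC2, DMBT1 and SLC6A20 it was 0.968, 0.763 and 0.435, and the 95% interval of MUC2, -1.0 to 0.94, holds changes of up to about 1 log2 unit either way. The CITED1 call was lost in 5 of 20 alternative settings. Leaving out VAV1 vehicle replicate 2 or 3 or empty vector replicate 2 gave a limma adjusted p of 0.0870, 0.0604 and 0.113, and comparing these groups alone gave 0.0979. With a pseudocount of 16 the difference was -0.38 (limma adjusted p = 0.0795).

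The share of return depends on the scale. On normalized counts the return was 51.6% of the rise for CEMIP, 11.5% for A2M, 9.21% for PCSK1 and 7.40% for CITED1, and 0 for the other 3 genes. CEMIP kept the highest share on either scale.

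The 6 untreated libraries had no part in choosing the genes, and they show where the same genes stood in RAC1 P29S cells. A2M, CEMIP, CITED1 and PCSK1 were lower in RAC1 P29S cells than in their empty vector controls, and DMBT1 was higher. These 5 genes could be tested, and 4 were lower and 1 higher, while 15.5% of 14036 genes were lower and 15.6% higher. The groups did not overlap for any of the 5, as for 45.0% of all genes in either direction.

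CEMIP had 10.28, 10.20 and 10.36 in RAC1 P29S cells, against 12.11, 11.88 and 12.08 in empty vector cells, a difference of -1.75 ± 0.07 (limma adjusted p = 4.28e-08). A2M had 5.07, 4.63 and 5.70 in RAC1 P29S cells, against 6.88, 6.71 and 6.86 in empty vector cells, a difference of -1.69 ± 0.26 (limma adjusted p = 0.000672). In both genes every RAC1 P29S library was more than 1 log2 unit below every empty vector library. PCSK1 had 6.85, 6.78 and 6.79 in RAC1 P29S cells, against 7.33, 7.53 and 8.07 in empty vector cells, a difference of -0.84 ± 0.18 (limma adjusted p = 0.00546). CITED1 had 3.93, 3.45 and 3.03 in RAC1 P29S cells, against 5.25, 4.73 and 4.56 in empty vector cells, a difference of -1.38 ± 0.35 (limma adjusted p = 0.0136). Both differences were smaller beside their spread, and that of CITED1 had a limma adjusted p of 0.0544 without empty vector replicate 1.

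DMBT1 went the other way. It had 5.44, 5.69 and 5.86 in RAC1 P29S cells, against 3.74, 3.81 and 4.28 in empty vector cells, a difference of 1.72 ± 0.27 (3.29-fold, limma adjusted p = 0.000763), or 1.11 with a pseudocount of 16. The lowest RAC1 P29S library stood 1.16 above the highest empty vector library. SLC6A20 had 1.76, 2.59 and 4.42 in RAC1 P29S cells, against 2.67, 1.64 and 2.57 in empty vector cells. Only 1 of its libraries reached a normalized count of 10, so it was not tested, and its groups overlapped.

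**Figure D3:**
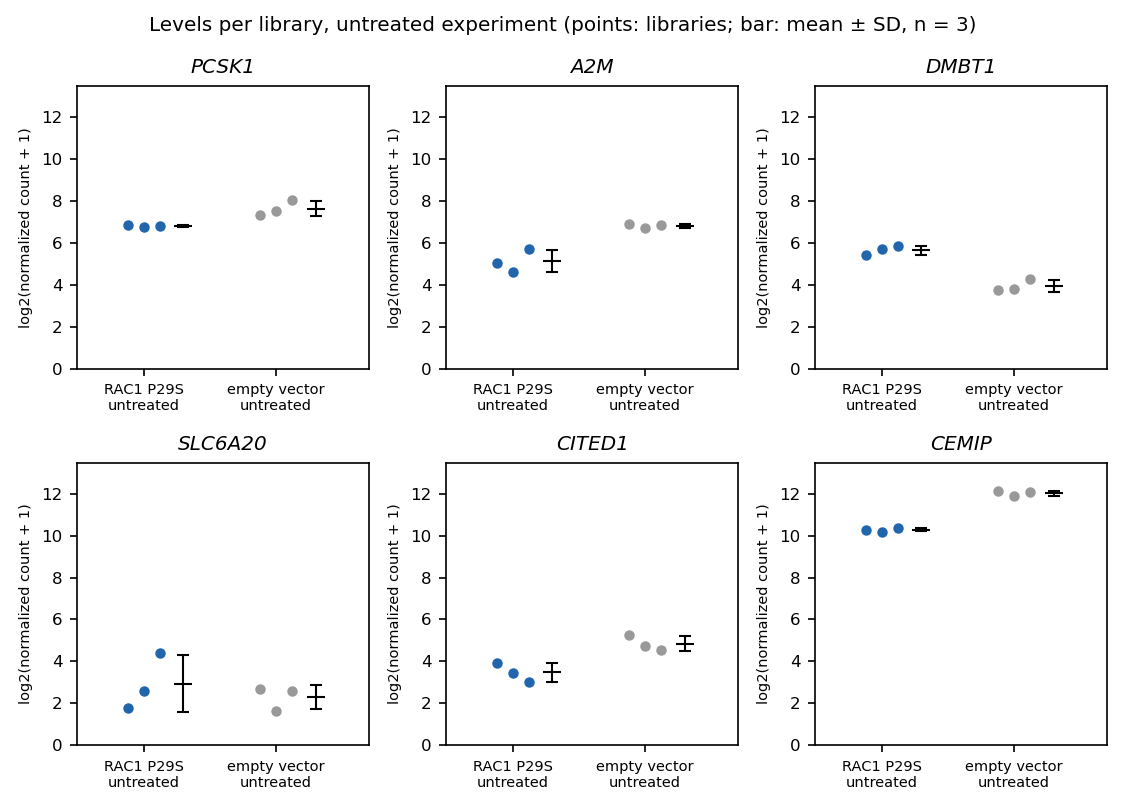
Each panel gives 1 of the 6 genes listed for the untreated libraries, with log2(normalized count + 1) on the vertical axis, RAC1 P29S left of empty vector, points for libraries and a bar for mean ± SD (n = 3). PCSK1, A2M, CITED1 and CEMIP are lower in RAC1 P29S cells, DMBT1 is higher, and SLC6A20 overlaps.

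The effects of VAV1 (vehicle) and RAC1 P29S, each against its own empty vector control, were then set against each other. The difference passed the threshold in 3 of 5 genes, against 15.8% of the 13810 genes tested in both experiments, and it uses the VAV1 vehicle libraries that helped to choose the genes. CEMIP lay further under its control in VAV1 cells than in RAC1 P29S cells, with a difference of effects of -1.05 ± 0.11 (limma adjusted p = 5.2e-06). DMBT1, higher in RAC1 P29S cells, had effects that differed by -1.64 ± 0.29 (limma adjusted p = 0.00106). For PCSK1 the difference was -0.70 ± 0.23 (limma adjusted p = 0.0497), and it passed in only 9 of 25 alternative settings. A2M differed by 0.20 ± 0.37 (95% interval -0.59 to 0.98) and CITED1 by 0.44 ± 0.46 (-0.53 to 1.42), neither past the threshold.

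**Figure D4:**
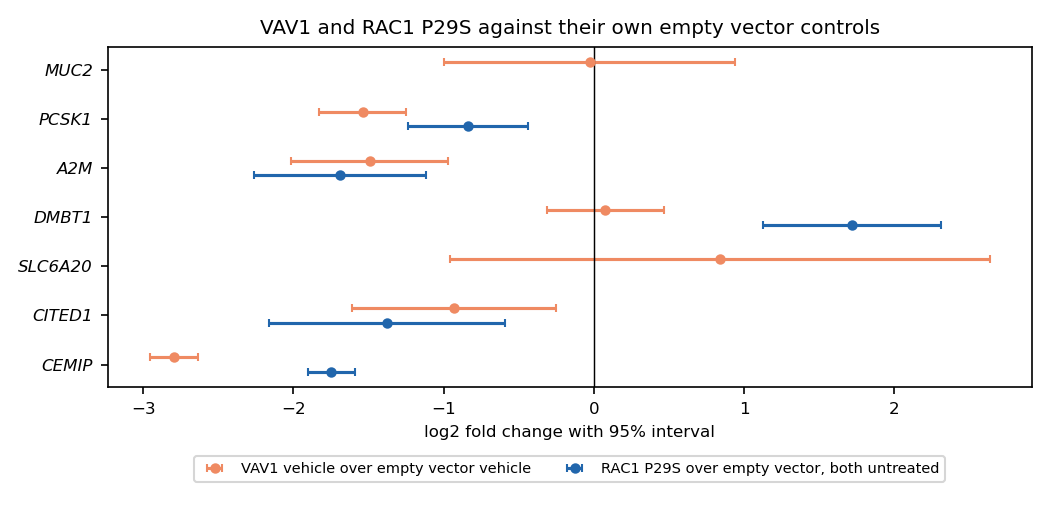
Points are log2 fold changes of VAV1 vehicle and RAC1 P29S cells over their own empty vector controls, with 95% intervals. The CEMIP intervals do not meet, and for DMBT1 the VAV1 point lies at 0.08 and the RAC1 P29S point at 1.72.

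The genes were also compared by the shape of their levels over the 9 libraries. The measure was the Euclidean distance between values centred on each gene's mean. Among themselves, CITED1 and PCSK1 lay 1.233 apart, PCSK1 and A2M 1.289, MUC2 and DMBT1 1.394, and SLC6A20 and DMBT1 2.828. DMBT1 lay nearer to CITED1 (1.875) and PCSK1 (2.255) than to SLC6A20, so the distances only partly followed the split by return. The nearest genes named next were searched among the other tested genes, with the 7 and clone names left out. The genes raised this strongly share that rise, so the distances are a description. Outside the 7, CITED1, A2M and PCSK1 all lay nearest to ATP6V0A4, a subunit of the vacuolar proton pump, at 1.068, 1.158 and 1.215. ATP6V0A4 is the first named gene just outside the chosen set, with a rise of 3.58 ± 0.13 beside 3.65 ± 0.07 for CEMIP just inside it. It had 9.41, 9.29 and 9.28 with saracatinib, 5.72, 5.82 and 5.71 in VAV1 vehicle cells and 6.79, 6.49 and 6.53 in empty vector cells. Next outside the 7 were RASD1, a small GTPase, for CITED1 (1.428) and PCSK1 (1.830), and the sialyltransferase ST8SIA4 for A2M (1.782).

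Outside the 7, MUC2, DMBT1 and SLC6A20 lay nearest to LCN2, a secreted siderophore-binding protein, at 2.234, 1.106 and 2.711, and then to the secreted glycoprotein STC1, at 2.333, 1.456 and 3.181. LCN2 had 5.12, 4.79 and 5.34 with saracatinib, 1.82, 2.02 and 1.5 in VAV1 vehicle cells and 0.97, 1.99 and 1.40 in empty vector cells. LCN2 shows the same picture of overlapping vehicle groups under a high saracatinib group. STC1 does not, as it was 0.94 ± 0.09 higher in VAV1 vehicle than in empty vector cells (limma adjusted p = 2.55e-06), without overlap. CEMIP lay nearest to HTRA1 outside the 7, a secreted serine protease, at 0.596, and to the ferritin receptor SCARA5 at 1.244. Both of these were far lower in VAV1 vehicle cells than in empty vector cells, with differences of -2.76 ± 0.10 for HTRA1 and -3.22 ± 0.24 for SCARA5. In the untreated libraries HTRA1 averaged 7.09 in RAC1 P29S cells and 10.13 in empty vector cells, SCARA5 5.52 and 8.15, and ATP6V0A4 6.47 and 7.67. STC1 was higher in RAC1 P29S cells, 8.38 against 7.28, and for RASD1 and ST8SIA4 the groups overlapped. A lower level in RAC1 P29S cells was thus not particular to the 7 genes.

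Neighbours on the chromosome were examined after the values had been seen. Within 200 kb of the 7 genes 25 genes are listed, of which 24 were tested, 12 were higher with saracatinib than with VAV1 vehicle, against 18.3% of all genes, and 2 were lower. The 4 largest changes lay beside MUC2, DMBT1 and CEMIP. MUC6, a gastric gel-forming mucin 38.2 kb from MUC2, had 6.56, 5.07 and 5.98 with saracatinib, 1.14, 0.54 and 0 in VAV1 vehicle cells and 0, 1.21 and 4.35 in empty vector cells. Its rise was 5.31 ± 0.90 (limma adjusted p = 0.000551), and 1 empty vector library came within 0.72 of the lowest saracatinib library. MUC6 rose by more than MUC2 but had a mean under the 5 CPM floor used for choosing the genes. MUC5AC, a mucin of stomach and airway 47.4 kb on the other side, had 5.69, 5.09 and 5.22 with saracatinib, 1.52, 3.43 and 2.59 in VAV1 vehicle cells and 3.78, 2.70 and 3.20 in empty vector cells. MUC5AC rose by 2.82 ± 0.48 (limma adjusted p = 0.000479) and stood 2.11 ± 0.48 above the empty vector. Like MUC2, MUC6 and MUC5AC would not have passed the filter on low values without their saracatinib libraries. Their p-values carry that choice and are a description only. MUC5B, the next mucin at 112.6 kb, differed by 0.49 ± 0.20 (limma adjusted p = 0.0786), and with saracatinib it differed from the empty vector by -1.24 ± 0.20. Gel-forming mucins are related and repetitive, so reads may be split between them. The GENCODE 29 model of MUC2 has a single coding transcript of 393 bases, and the annotation used for the deposited values is not given in the sources used here.

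HTRA1 ends 45.8 kb from DMBT1. It had 9.59, 9.66 and 9.64 with saracatinib, 6.34, 6.17 and 6.40 in VAV1 vehicle cells and 9.21, 9.02 and 8.98 in empty vector cells. HTRA1 thus rose by 3.32 ± 0.10 to 0.56 ± 0.10 above the empty vector, mostly as a return, beside a gene with none. ABHD17C, a depalmitoylating enzyme 23.7 kb from CEMIP, rose by 2.26 ± 0.09. Its difference from the empty vector was 0.31 ± 0.09 with saracatinib and -1.95 ± 0.09 in VAV1 vehicle cells. ARNT2, a bHLH-PAS transcription factor 181.4 kb from CEMIP, rose by 1.85 ± 0.06. Its difference from the empty vector was 0.08 ± 0.06 with saracatinib and -1.77 ± 0.06 in VAV1 vehicle cells. CEMIP, ABHD17C and ARNT2, the 3 genes tested in this stretch, were all lower in VAV1 vehicle cells and all mostly a return. MESD, a protein-coding gene that overlaps CEMIP by 5488 bases, is not listed under that name, so its change is not known. Around PCSK1, A2M, SLC6A20 and CITED1 no tested neighbour rose by as much as 1 log2 unit, the highest being LZTFL1 near SLC6A20 at 0.68 ± 0.10.

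**Figure D5:**
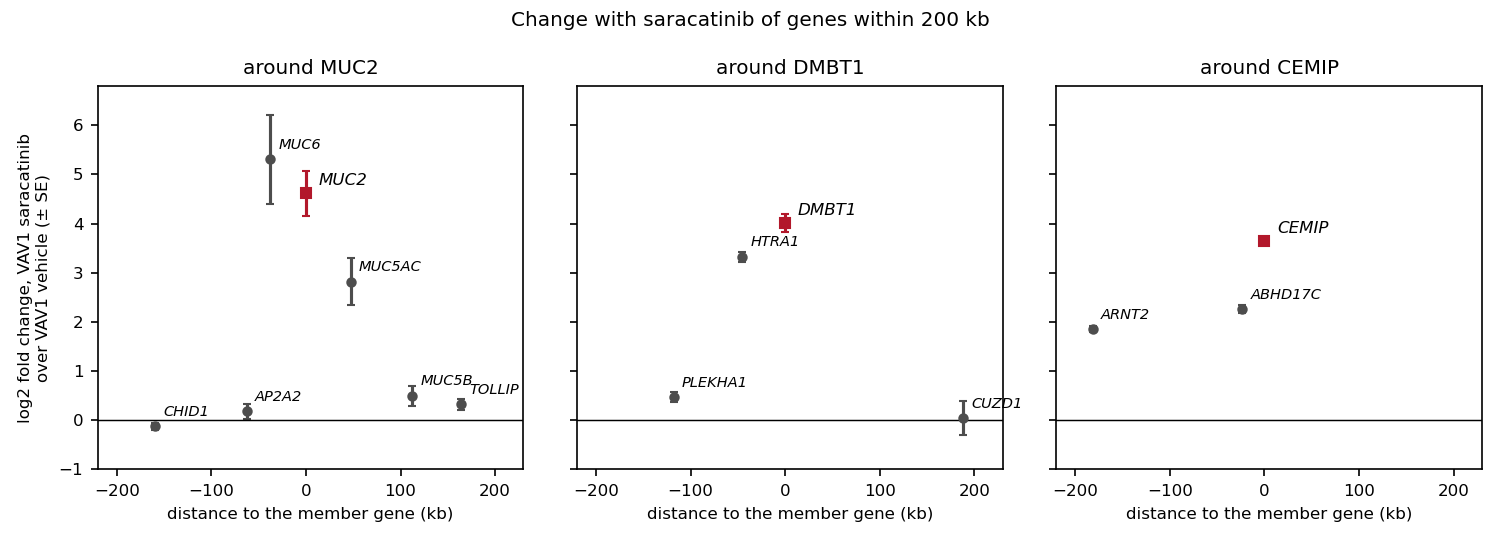
The horizontal axis is the distance in kb between a gene and MUC2, DMBT1 or CEMIP (square), and the vertical axis the log2 fold change of VAV1 saracatinib over VAV1 vehicle cells with its SE. MUC6, MUC5AC, HTRA1, ABHD17C and ARNT2 lie between 1.85 and 5.31, and the other genes drawn lie under 0.5.

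For the pathways around the 7 genes, median changes with saracatinib over VAV1 vehicle are set beside a median of -0.01 over all 14410 genes, of which 18.3% were higher and 19.1% lower. Each list's counts are read against those shares. Of 13 mucin and goblet cell genes other than MUC2, 5 rose, none fell and 8 did not pass, with a median of 0.49. The 5 were MUC1, TFF2, MUC13, MUC5AC and MUC6. MUC5AC and MUC6 would not have passed the filter on low values without their saracatinib libraries, so this count carries that choice. MUC13 was low, averaging 4.72, 3.35 and 2.26 in saracatinib, VAV1 vehicle and empty vector cells. The cell surface mucin MUC1 rose by 1.24 ± 0.32 (limma adjusted p = 0.00782). The trefoil peptide TFF2 rose by 0.95 ± 0.22 (limma adjusted p = 0.00372). Of 14 genes of prohormone processing and dense core granules, 5 rose and 9 did not pass, with a median of 0.17. VGF, a granule protein that is itself cut by PCSK1, rose by 2.48 ± 0.08 (limma adjusted p = 2.53e-10) and stood 0.79 ± 0.08 above the empty vector. The carboxypeptidase CPE, which trims the products of PCSK1, rose by 1.01 ± 0.16 (limma adjusted p = 0.00026) and was 0.02 ± 0.16 from the empty vector.

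Of 7 relatives and receptors of A2M, 5 rose and 2 did not pass, with a median of 0.66. Complement C3, of the same protein family, rose by 2.58 ± 0.13 (limma adjusted p = 6.58e-09) and stood 1.90 ± 0.13 above the empty vector, and CD109 rose by 0.90 ± 0.06 and differed from the empty vector by -0.18 ± 0.06. Of 15 scavenger receptor cysteine-rich genes other than DMBT1, 6 rose and 9 did not pass, with a median of 0.18. SCARA5 led with 3.34 ± 0.24 (limma adjusted p = 2.61e-07), followed by complement factor I, CFI, with 2.39 ± 0.12 (limma adjusted p = 6.55e-09).

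Of 11 SLC6 and other imino acid carriers, 3 rose, 2 fell and 6 did not pass, with a median of -0.01, shares near those of all genes. The glycine transporter SLC6A9 fell by 0.79 on the log2 scale (SE 0.12, limma adjusted p = 0.000206). Of 11 CITED proteins and partners, 2 rose, 3 fell and 6 did not pass, with a median of -0.07. CITED2 rose by 0.51 ± 0.08 (limma adjusted p = 0.000167) and stood 3.11 ± 0.08 above the empty vector, but unlike CITED1 it was already 2.60 ± 0.08 above it in VAV1 vehicle cells. Of 16 hyaluronan genes other than CEMIP, 7 rose, 1 fell and 8 did not pass, with a median of 0.19. The hyaluronan synthases HAS2 (1.13 ± 0.27, limma adjusted p = 0.00447) and HAS3 (0.93 ± 0.14, limma adjusted p = 0.000219) rose, and so did the cell surface hyaluronidase TMEM2 (0.50 ± 0.07, limma adjusted p = 0.000106). The gene that fell was HMMR, by 0.42 on the log2 scale (SE 0.07, limma adjusted p = 0.000214). With saracatinib TMEM2 still differed from the empty vector by -0.87 ± 0.07. Against the empty vector 2 of these 16 genes were higher with saracatinib, 5 were lower and 9 did not pass.

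Of 26 genes of the STAT3 pathway and its targets, 17 rose, 3 fell and 6 did not pass, with a median of 0.43. SERPINA3, an acute phase protease inhibitor, rose by 1.66 ± 0.05 (limma adjusted p = 5.51e-11) but with saracatinib still differed from the empty vector by -1.66 ± 0.05, unlike the 7 genes. Of 13 melanocyte differentiation genes, 6 rose, 1 fell and 6 did not pass, with a median of 0.26. GPNMB rose by 1.62 ± 0.05 (limma adjusted p = 7.71e-11), and MITF, the master factor of the lineage, fell by 1.09 on the log2 scale (SE 0.11, limma adjusted p = 5.88e-06). MITF had stood 1.57 ± 0.11 above the empty vector in VAV1 vehicle cells and was still 0.47 ± 0.11 above it with saracatinib. Its fall was thus a partial return toward the empty vector level.

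Markers of cell types known for these genes were checked. Of 10 intestinal goblet and epithelial markers 2 are listed, TFF3 and FCGBP, with a summed normalized count of 19.9 to 40.9 with saracatinib, 16.8 to 24.5 in VAV1 vehicle cells and 48.1 to 52.8 in empty vector cells, and CDX1, CDX2, ATOH1 and SPDEF are not listed. The 4 listed neuroendocrine markers had sums of 141 to 171, 119 to 127 and 147 to 158 in the same order, and CHGA is not listed. The goblet sum was thus lower with saracatinib than in empty vector cells, and the neuroendocrine sums of these groups overlapped. Of 8 haematopoietic markers 6 are listed, with sums of 2458 to 2700 with saracatinib, 1172 to 1226 in VAV1 vehicle cells and 705.5 to 756 in empty vector cells. In the same order CD68, a lysosomal protein that makes up most of these sums, averaged 11.26, 10.15 and 8.94, CD79A 3.58, 1.22 and 0.27, and LYZ 6.48, 5.79 and 7.90. PTPRC averaged 2.48, 2.63 and 2.73 and CD14 1.64, 0.89 and 1.53, and CD3E and SPI1 are not listed. Sums of 6 listed fibroblast markers were 356 to 411, 410 to 479 and 362 to 425, and those of 5 endothelial markers 77.2 to 116, 42.3 to 82.2 and 74.0 to 89.1, in the same order. The part of these markers in the results was not tested.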

How the data were processed

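RNA from 15 A375 libraries was measured by sequencing. The authors' deposited values are log2(normalized count + 1), 1 per symbol and library. Per the submitters' processing notes the tools were kallisto and DESeq2 and the build GRCh38, without versions. Gene positions came from GENCODE 29 on the same build.

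From these values limma 3.58.1 in R 4.3.3 fitted 1 mean per group and moderated variances robustly along a trend with the mean. Tests were two-sided, adjusted by Benjamini-Hochberg over all genes tested, with a threshold of 0.05. The vehicle and saracatinib experiment (9 libraries) and the untreated one (6) were fitted apart, and all 15 libraries entered the fit of the difference of effects. A gene was tested if 3 or more libraries of the fit reached a normalized count of 10, which left 14410 and 14036 genes. The methods were checked on simulated data. No pair of libraries had exactly equal values in over 90% of genes. Depth per library in reads is unknown, so no counting interval is given. Values after ± are SE for differences and SD for levels.

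Return was the part of the rise of the mean log2 value up to the empty vector mean, and the remainder was overshoot. The members, gene lists and motifs were chosen with earlier results of these data known. Named genes were the members, VAV1 and RAC1, the first gene below the members in rank, the 2 tested genes nearest each member over 9 libraries, and up to 4 genes per list with the smallest adjusted p, of which some are printed. Genes with clone names were skipped, among them 1 that ranked between PCSK1 and A2M by its rise. Chromosome neighbours, the exceptions raised at least 8-fold and single markers were named after their values were seen.

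Over all genes tested, same-numbered libraries did not deviate together (correlations of residuals -0.0547 to -0.0006 among the 9 and -0.0271 to 0.0125 among the 6). The main fits therefore had no block. Alternatives were 4 scalings, 2 filters, pseudocounts of 4 and 16, the compared groups alone, plain variance moderation, a replicate block, the split on normalized counts and leaving out each library.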

Additional observations from a re-analysis of the deposited data

Results flagged for a closer look

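The effect of VAV1 and the effect of RAC1 P29S, each against its own empty vector control, differed by a limma test of the difference for 3 of the 5 genes tested in both experiments, against 15.8% of all genes tested there. The difference, VAV1 effect minus RAC1 P29S effect on the log2 scale, was -1.64 for DMBT1, which was higher in RAC1 P29S cells and did not pass the threshold in VAV1 cells. It was -1.05 for CEMIP, which was lower in both. For PCSK1, lower in both, it was -0.70, and it did not pass the threshold in 16 of 25 alternative settings. The experiments also differ in that VAV1 cells received vehicle and RAC1 P29S cells nothing, and the part of this in the differences was not tested.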

How the results depend on the processing

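The number of genes past the threshold stayed within 1.5 times the reported one in every comparison: 4552 to 5460 for saracatinib over VAV1 vehicle, 5321 to 6368 for saracatinib over empty vector, 5382 to 6373 for VAV1 over empty vector, 3309 to 4428 for RAC1 P29S and 1695 to 2240 for the difference of effects. The number of members above the empty vector was 7 under all alternatives except leaving out any saracatinib library, where it was 6, because MUC2 then fell under the filter. The fit with the replicate number as a block gave 5061, 5940, 5951, 3888 and 2011 genes in the same order. Over all genes tested the numbers do not pair these libraries, but for SLC6A20 replicate 2 was high in both vehicle groups. Under the block its VAV1 effect of 0.84 had an SE of 0.45 in place of 0.79 (limma adjusted p = 0.167). PCSK1 no longer passed under the block in the difference of effects (limma adjusted p = 0.0586). Small values changed sign. The VAV1 effect on MUC2 was 0.00731 with a pseudocount of 4, 0.00778 with 16 and -0.352 to 0.356 when single libraries were left out. That on DMBT1 was -0.104 to 0.179, and the difference of effects for A2M was -0.0755 to 0.480, when single libraries were left out, and the causes were not tested. A pseudocount of 16 lowered the distance above the empty vector to 1.99 for CITED1 and 3.31 for SLC6A20. Levels of MUC2, SLC6A20 and CITED1 near the bottom of the scale limit what can be said of their vehicle groups.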
